A study of Mus musculus with 35 samples.

Results

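The genes described here are 10 genes of cardiac muscle that are read in whole mouse lung: Myl7, Myl4, Nppa, Ttn, Actc1, Tnnt2, Tnni3, Myh6, Ryr2 and Sln. They were listed by symbol, and each was read from the array probe set that carried its symbol alone. All 10 were found among 19938 genes measured this way, and each had 1 such probe set. The study asked how inspired CO2 bears on ventilator-induced lung injury, with 35 lungs of adult male C57BL/6J mice weighing 20 to 25 g, each on its own Affymetrix array. The high stretch hypercapnia group held 10 mice ventilated for 3 h at about 35 to 40 mL/kg tidal volume, a peak pressure of 27 cmH2O, no end-expiratory pressure and 30 to 35 breaths a minute, in 75% oxygen and 12% CO2 with nitrogen as the balance. The high stretch normocapnia group held 10 mice ventilated in the same way in 75% oxygen with no CO2. The low stretch hypercapnia group held 5 mice ventilated for 3 h at 10 mL/kg, an end-expiratory pressure of 2 cmH2O and 135 breaths a minute, in room air with 12% CO2. The low stretch normocapnia group held 5 mice ventilated in that way in room air. The non-ventilated group held 5 mice that breathed room air spontaneously. In the ventilated groups a tracheostomy was placed under anaesthesia, and lungs were lavaged before they were frozen. High and low stretch thus differed in oxygen, pressure and rate as well as in tidal volume, and these cannot be told apart.

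In rodents the walls of the pulmonary veins carry a sleeve of cardiac muscle that runs on from the left atrium far into the lung. Its cells hold the sarcomere of heart muscle, in which myosin heads pull on actin filaments when calcium released from the sarcoplasmic reticulum binds troponin. Atrial muscle is told from ventricular muscle by its own myosin light chains, by atrial natriuretic peptide and by sarcolipin.

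The list spans those roles. Myh6 is the alpha myosin heavy chain, Myl7 and Myl4 are the regulatory and essential light chains of atrial myosin, and Actc1 is cardiac alpha-actin. Tnnt2 and Tnni3 are the cardiac troponins T and I. Troponin T ties the troponin complex to tropomyosin, and troponin I blocks the thin filament at low calcium. Ttn encodes titin, the elastic filament of the sarcomere in heart and skeletal muscle alike. Ryr2 is the calcium release channel of the cardiac sarcoplasmic reticulum, Sln is sarcolipin, an inhibitor of the calcium pump, and Nppa is the precursor of atrial natriuretic peptide. The arrays hold no record of position. Whether the RNA came from the venous sleeve or from heart tissue left on the lung was not tested, so the genes are called cardiac muscle genes below.

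The RefSeq promoter table (GRCm38.p6) held 10 windows for 9 of the 10 genes. The windows of the 2 genes that differed between groups (Actc1 and Ryr2), of the atrial light chain Myl7 and of Ttn are shown, and the others are not. Neither Myl7 nor Ttn had an adjusted p under 0.05 in any comparison of groups. Each window is the 250 bases before a RefSeq start, 5′ to 3′ on the gene's strand, with matches to 4 motifs of muscle promoters in capitals. One motif was GATA, the core of the binding site of GATA factors, and another was the M-CAT element, spelled CATTCC. The others were the CArG box and the MEF2 box. All were searched on both strands, and no matches overlap in these windows. Actc1 lies at chr2:114052876-114053125 (minus strand), Ryr2 at chr13:12106946-12107195 (minus strand), Myl7 at chr11:5898783-5899032 (minus strand) and Ttn at chr2:76982548-76982797 (minus strand).
Actc1: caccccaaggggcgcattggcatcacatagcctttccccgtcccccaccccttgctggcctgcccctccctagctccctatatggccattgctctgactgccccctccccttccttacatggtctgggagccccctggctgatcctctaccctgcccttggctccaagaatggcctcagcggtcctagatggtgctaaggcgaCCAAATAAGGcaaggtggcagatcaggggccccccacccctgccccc
Ryr2: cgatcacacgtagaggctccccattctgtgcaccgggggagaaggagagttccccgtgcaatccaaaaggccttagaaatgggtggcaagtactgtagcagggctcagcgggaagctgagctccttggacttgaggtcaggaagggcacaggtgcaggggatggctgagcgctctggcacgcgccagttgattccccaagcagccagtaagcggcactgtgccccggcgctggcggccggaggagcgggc
Myl7: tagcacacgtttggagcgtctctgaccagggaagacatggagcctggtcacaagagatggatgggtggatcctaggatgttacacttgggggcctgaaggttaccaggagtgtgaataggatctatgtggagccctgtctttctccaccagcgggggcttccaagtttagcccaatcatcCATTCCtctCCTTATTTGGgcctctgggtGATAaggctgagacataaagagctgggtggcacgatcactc
Ttn: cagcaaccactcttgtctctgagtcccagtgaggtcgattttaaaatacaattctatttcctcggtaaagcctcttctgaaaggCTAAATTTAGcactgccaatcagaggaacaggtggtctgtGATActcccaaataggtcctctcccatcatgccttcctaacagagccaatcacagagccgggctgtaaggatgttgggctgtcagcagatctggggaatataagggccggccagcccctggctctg

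The CArG box, the binding sequence of serum response factor, stood in the windows of Actc1 and Myl7, which is 2 of the 10 windows, while 1.47% of 32851 RefSeq windows of the same length held it. A MEF2 box stood in the Ttn window alone, and in 2.92% of all windows. The windows shown thus include every one of the 10 that held a CArG box or a MEF2 box. GATA stood in 6 of the 10 windows, against 53.6% of all windows, and CATTCC in 3, against 12.6%. None of the 4 motifs stood in the Ryr2 window.

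Values are the log2 signals deposited by the authors. Array medians lay between 6.96 and 7.05, and no arrays were identical. The quantile normalization that is usual in RMA makes medians alike, so they cannot show whether an array was shifted before that step. Of 10 alveolar and club cell genes, 3 fell in low stretch normocapnia relative to non-ventilated lungs, while 1031 of all 19938 genes fell there. In high against low stretch in normocapnia 1 of the 10 rose, while 1739 of all genes did. None of the 10 passed in the other pairs. The surfactant protein gene Sftpc lay between 13.94 and 14.10 over the 35 arrays. Skeletal muscle genes set 5 arrays apart. The mean log2 signal of 14 skeletal muscle genes was 7.88 and 8.22 on high stretch hypercapnia replicates 1 and 2, 8.22 on low stretch hypercapnia replicate 3, 7.54 on low stretch normocapnia replicate 5 and 8.16 on non-ventilated replicate 5. On the other 30 arrays it lay between 5.93 and 6.54, and no high stretch normocapnia array was among the 5. The skeletal actin gene Acta1 lay between 10.02 and 10.98 on those 5 arrays and between 6.89 and 8.49 on the other 30. For the 10 genes, values that move with these 5 arrays are given with and without them. In whole lung, fewer cardiac muscle cells and less RNA in each cell cannot be told apart.

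The group means of all 10 genes were highest in non-ventilated lungs, where 32.1% of all genes had their highest mean. The lowest mean was that of high stretch normocapnia for 6 genes (Myl7, Nppa, Ttn, Actc1, Tnnt2 and Ryr2), of low stretch hypercapnia for 3 (Myl4, Tnni3 and Myh6) and of low stretch normocapnia for Sln. Without low stretch hypercapnia replicate 1, the lowest means of Myl4, Tnni3 and Myh6 were those of high stretch normocapnia as well. The distance between the highest and the lowest group mean ran from 0.19 for Sln to 0.71 for Actc1 on the log2 scale. These orders describe genes that vary together from array to array, and 2 of the 10 genes differed among the groups.

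The test of any difference among the 5 groups (limma's moderated F test over all genes) passed for Actc1 (adjusted p = 0.0014) and Ryr2 (adjusted p = 0.00784). That is 2 of 10 genes, while 40.9% of all genes passed. Of the pairs of groups, only high against low stretch in normocapnia gave calls: the same 2 genes fell, while 18.3% of all genes passed in either direction and 9.56% fell. The share of the cardiac muscle genes in that pair is thus near the background of the array.

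Actc1, the actin of the cardiac thin filament, had a log2 signal between 11.45 and 12.18 with a median of 11.79 in the 10 high stretch hypercapnia lungs and between 10.997 and 11.84 with a median of 11.58 in the 10 high stretch normocapnia lungs. It read 11.27, 11.93, 12.01, 11.84 and 12.16 in low stretch hypercapnia, 11.64, 12.15, 12.004, 11.88 and 12.12 in low stretch normocapnia, and 12.24, 12.21, 11.93, 12.29 and 12.40 in non-ventilated lungs. The high stretch normocapnia and low stretch normocapnia groups overlapped, and 6 of the 10 high stretch normocapnia lungs lay below all 5 of low stretch normocapnia. Actc1 averaged 11.51 ± 0.32 in high stretch normocapnia (SD, n = 10) and 11.96 ± 0.21 in low stretch normocapnia (SD, n = 5). That is a 1.37-fold lower level, or a log2 change of -0.45 (95% interval -0.74 to -0.17, adjusted p = 0.0218 over all genes), and an exact two-sided permutation test over the 15 arrays gave p = 0.00799. Without low stretch normocapnia replicates 2, 3 or 5 in turn, its adjusted p was 0.0719, 0.0559 and 0.0603, and without the 5 arrays high in skeletal muscle genes it was 0.0636. With the replicate block it was 0.0864, for a change of -0.37.

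Ryr2, the calcium release channel, lay between 7.45 and 7.99 with a median of 7.70 in high stretch hypercapnia and between 7.20 and 7.90 with a median of 7.48 in high stretch normocapnia. It read 7.33, 7.70, 7.55, 7.73 and 8.24 in low stretch hypercapnia, 7.76, 7.87, 7.96, 7.78 and 8.01 in low stretch normocapnia, and 7.82, 7.75, 8.06, 7.86 and 8.08 in non-ventilated lungs. In high stretch normocapnia 9 of 10 lungs lay below all 5 low stretch normocapnia lungs, and replicate 9 lay among them. Ryr2 averaged 7.49 ± 0.22 in high stretch normocapnia (SD, n = 10) and 7.88 ± 0.11 in low stretch normocapnia (SD, n = 5). That is a 1.30-fold lower level, or a log2 change of -0.38 (95% interval -0.60 to -0.16, adjusted p = 0.0112 over all genes), and the exact two-sided permutation test gave p = 0.00333. It passed without each of the 35 arrays in turn, with an adjusted p of at most 0.0391, and without the 5 arrays high in skeletal muscle genes (adjusted p = 0.0453).

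For both genes the group means stood in the same order, with non-ventilated lungs highest, then low stretch normocapnia, low stretch hypercapnia, high stretch hypercapnia and high stretch normocapnia. Each step between neighbours in that order was a tested pair and none passed. Actc1 differed by 0.32 between high stretch hypercapnia and high stretch normocapnia (95% interval 0.08 to 0.56, unadjusted p = 0.00911, adjusted p = 0.106). Ryr2 differed by 0.19 there (95% interval 0.01 to 0.37, unadjusted p = 0.0369, adjusted p = 0.241).

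**Figure D1:**
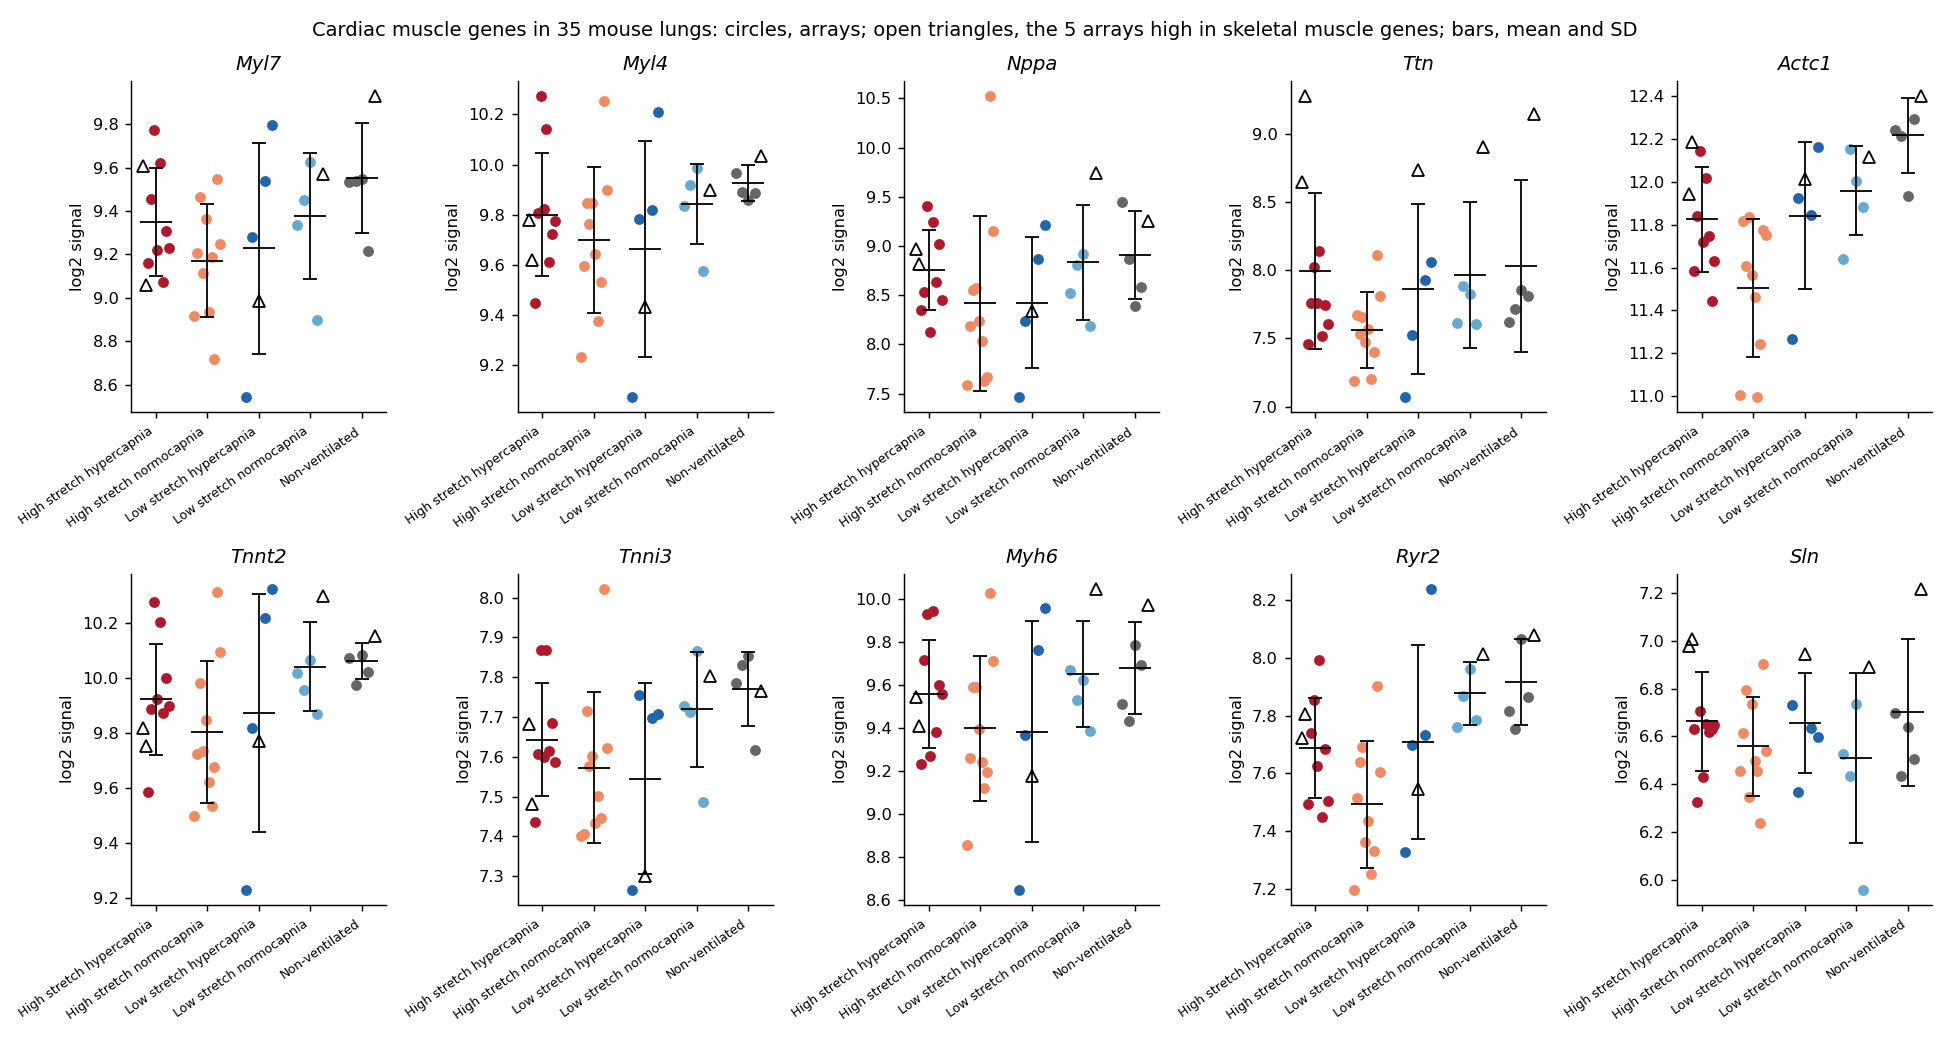
Log2 signal of each of the 10 cardiac muscle genes on the vertical axis, with the 5 groups along the horizontal axis; circles are single lungs, open triangles the 5 arrays high in skeletal muscle genes, and bars the group mean and SD (n = 10 in each high stretch group, n = 5 in each other group). For Ttn the triangles are the highest values of their groups (8.65 to 9.27, against 7.07 to 8.14 on the other 30 arrays). For Sln they are the highest of their groups too (6.89 to 7.22, against 5.96 to 6.90). Over all arrays, the triangles and circles overlap in range for each gene but Ttn.

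In the same comparison of high against low stretch in normocapnia, the changes of the other 8 genes ran from -0.42 for Nppa to 0.05 for Sln, and none passed. The median of all 10 genes was -0.25, and that of all genes tested was -0.02. The myosin and troponin genes had changes of -0.25 for Myh6, -0.24 for Tnnt2, -0.20 for Myl7, -0.15 for Tnni3 and -0.14 for Myl4. The interval of Myh6 ran from -0.59 to 0.08, which holds both 0 and the change of Actc1. The 14 skeletal muscle genes had a median change of -0.30 with no call. With their mean as a covariate both calls held, at -0.42 for Actc1 (adjusted p = 0.026) and -0.38 for Ryr2 (adjusted p = 0.0147). Without the 5 arrays high in skeletal muscle genes, the median of the 10 genes was -0.16 and the change of Ttn was -0.17, against -0.40 with them. Without high stretch normocapnia replicate 9, the change of Nppa was -0.65 and did not pass.

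High stretch hypercapnia minus high stretch normocapnia gave 10 positive differences between 0.07 for Tnni3 and 0.43 for Ttn, with a median of 0.17. No gene of the 10 passed limma's test, while 5.56% of all genes did. Without adjustment, Actc1 and Ryr2 had p under 0.05, and in a permutation test of each gene (100000 resamples, two-sided, not adjusted) Ttn (p = 0.0351), Actc1 (p = 0.0224) and Ryr2 (p = 0.0425) did. Ttn was highest on the 2 high stretch hypercapnia arrays high in skeletal muscle genes, and the 14 skeletal muscle genes had a median difference of 0.30 with no call. Without the 5 arrays the difference of Ttn was 0.19 (adjusted p = 0.506), and with the skeletal mean as a covariate it was 0.21 (adjusted p = 0.368). All 10 differences were positive without those arrays too, from 0.02 for Sln to 0.30 for Nppa. The exact two-sided permutation tests of 8 against 10 arrays then gave p = 0.0707 for Actc1, p = 0.0947 for Ryr2 and p = 0.144 for Ttn.

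Hypercapnia at low stretch gave 9 negative differences of 10, from -0.41 for Nppa to 0.15 for Sln, with a median of -0.17. None passed limma's test or had an unadjusted p under 0.05, by limma or by permutation, and 0.115% of all genes passed. Low stretch hypercapnia replicate 1 was low in most of the genes, and without it 6 of the 10 differences were negative, with a median of -0.02 and -0.17 for Nppa. High against low stretch in hypercapnia gave differences between -0.02 for Ryr2 and 0.33 for Nppa, and none of the 10 passed limma's test or had an unadjusted p under 0.05, by limma or by permutation, against 10.1% of all genes that passed. Without low stretch hypercapnia replicate 1 that of Nppa was 0.09, 7 of the 10 differences were negative, and their median was -0.03, against 0.11 with it. Low stretch normocapnia against non-ventilated lungs gave 10 small negative differences, from -0.26 for Actc1 to -0.02 for Tnnt2, and again none passed limma's test or had an unadjusted p under 0.05 by either test, against 11.8% of all genes that passed. In that comparison the neutrophil genes, 8 of 8, rose with a median log2 change of 3.29, so the lungs themselves differed widely between these groups.

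The CO2 effect at high stretch minus that at low stretch, the interaction, was 0.44 for Actc1 (95% interval 0.03 to 0.84, unadjusted p = 0.0363) and 0.36 for Ryr2 (95% interval 0.05 to 0.67, unadjusted p = 0.0254). Neither passed over all genes (adjusted p = 0.997 for both), and 0% of all genes passed, although 893 of them had an unadjusted p under 0.05. In limma's test, none of the 10 genes had an unadjusted p under 0.05 for the interaction without low stretch hypercapnia replicate 1. The same held without the 5 arrays high in skeletal muscle genes. The median of the 10 was 0.21 or 0.25 there, against 0.34 over all arrays. Other settings went the other way: 5 of the 10 had an unadjusted p under 0.05 without high stretch normocapnia replicate 9 (median 0.39). With the skeletal mean as a covariate 3 did (median 0.34), against 2 in the main fit. The comparisons share the high stretch normocapnia and low stretch normocapnia arrays, so their signs are not independent of each other.

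**Figure D2:**
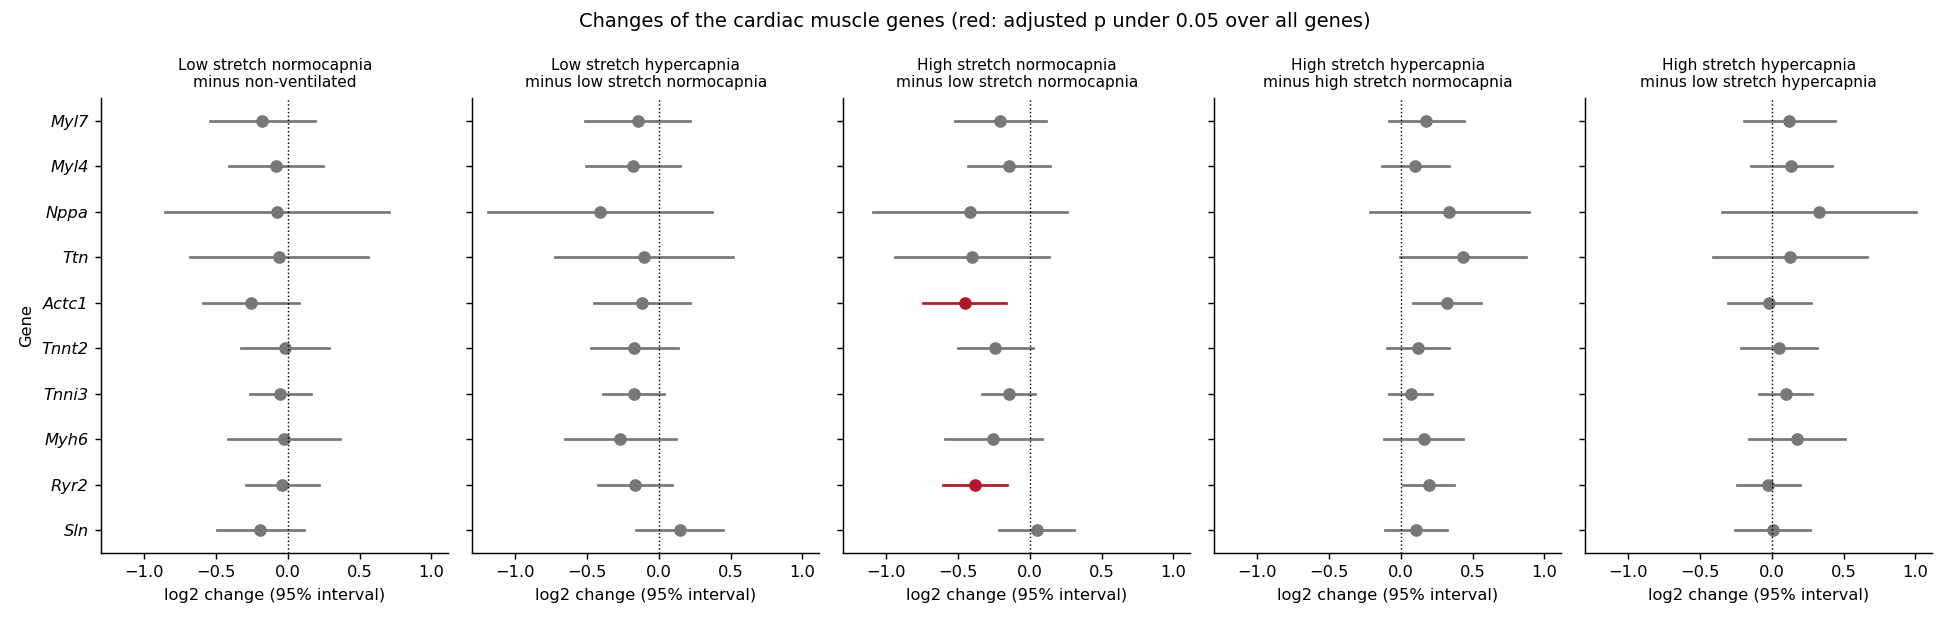
Log2 change (horizontal axis) with its 95% interval for each of the 10 genes (rows) in the 5 pairs of groups (panels); red marks an adjusted p under 0.05 over all genes. The panel of high stretch normocapnia minus low stretch normocapnia holds the 2 red points, Actc1 at -0.45 and Ryr2 at -0.38, and all other intervals in the plot are grey.

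The genes varied more between lungs of the same group than most genes did. The SD within groups was 0.65 for Nppa and 0.51 for Ttn on the log2 scale, with ranks of 69 and 137 among 19938 genes. On the 30 arrays low in skeletal muscle genes it was 0.67 for Nppa and 0.27 for Ttn, which was then at rank 1090, and 0.19 for Sln, against 0.25 over all arrays. With all 35 arrays the SD was 0.32 for Myh6, 0.30 for Myl7, 0.27 for Actc1 and Myl4, and 0.25 for Tnnt2 and Sln. These 8 genes were among the top 10% of all genes, while Ryr2 (0.21) and Tnni3 (0.17) were not. The median over the 10 genes was 0.27 and over all genes 0.15.

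Nppa, whose product the atrium secretes when stretched, had the widest range. It lay between 8.12 and 9.41 with a median of 8.73 in high stretch hypercapnia and between 7.59 and 10.52 with a median of 8.21 in high stretch normocapnia. It read 7.47, 8.24, 8.34, 8.86 and 9.22 in low stretch hypercapnia, 8.52, 8.80, 8.92, 8.18 and 9.75 in low stretch normocapnia, and 9.45, 8.87, 8.39, 8.59 and 9.25 in non-ventilated lungs. All 5 groups overlapped, and the highest lung was high stretch normocapnia replicate 9. The related hormone gene Nppb lay between 6.21 and 6.90 over all 35 arrays, and none of its changes passed.

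A single lung was often high or low in most of the genes at once. High stretch normocapnia replicate 9 was the highest of its group for 9 of the 10 genes, where 12.8% of all genes had their highest value. It read 10.52 for Nppa, 10.31 for Tnnt2, 10.02 for Myh6 and 8.02 for Tnni3. Low stretch hypercapnia replicate 1 was the lowest of all 35 arrays for 7 of the 10 genes, where 4.67% of all genes had their lowest value. It read 8.54 for Myl7, 7.47 for Nppa, 8.65 for Myh6 and 9.23 for Tnnt2. On that array the mean of the 8 neutrophil genes (11.54) was the highest of 35 and that of 6 endothelial genes (10.80) the lowest, and their part in the low cardiac values was not tested. Without that array, no cardiac muscle gene passed in either comparison that uses its group.

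**Figure D3:**
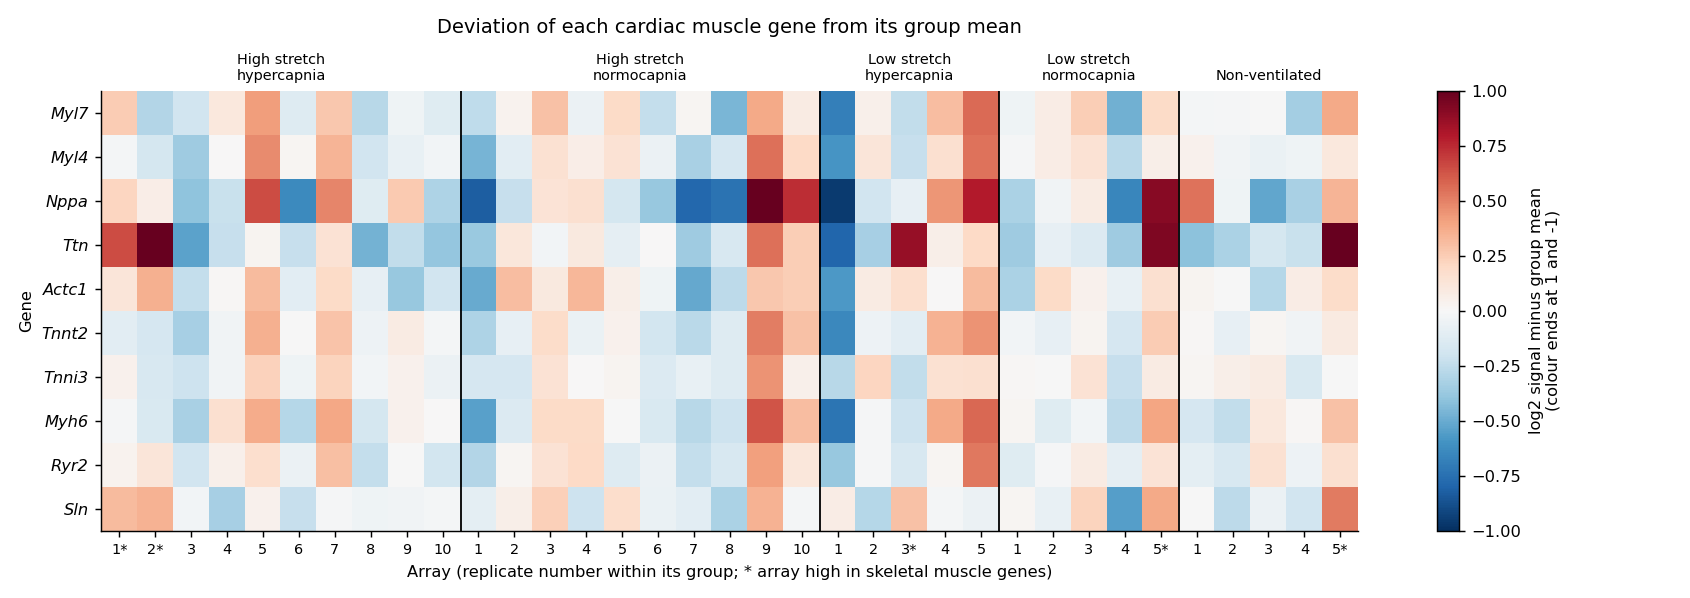
Colour gives the log2 signal minus the group mean for each of the 10 genes (rows) on each of the 35 arrays (columns, by group and replicate number, with a star for the 5 arrays high in skeletal muscle genes). Columns tend to be of one colour, such as low stretch hypercapnia replicate 1 (blue) and high stretch normocapnia replicate 9 (red), and the Ttn row is dark red on starred arrays.

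With group means removed, the genes other than Ttn and Sln moved together from lung to lung. Over the 30 arrays low in skeletal muscle genes, the 28 pairs among those 8 genes had Pearson's r between 0.55 and 0.94, with a median of 0.82, and Spearman's rho between 0.54 and 0.89. All 28 had an adjusted permutation p under 0.05, with Benjamini-Hochberg adjustment over the 45 pairs of the 10 genes. Without the 2 arrays farthest from the median in each pair, r still lay between 0.46 and 0.89. Over all 35 arrays the 28 pairs lay between 0.40 and 0.93.

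The closest pair was Tnnt2 and Myh6, a thin filament and a thick filament gene, with r = 0.94 and rho = 0.88 over the 30 arrays (permutation p = 1e-05 for each, the smallest that 100000 resamples give, adjusted p = 2.37e-05 for r). Myl4 and Tnnt2 followed with r = 0.93 and rho = 0.89 (permutation p = 1e-05 for each). The weakest of the 28 was Actc1 with Tnni3, at r = 0.55 (permutation p = 0.00702) and rho = 0.54 (permutation p = 0.00496), where r was 0.46 without the 2 farthest arrays.

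Ttn went with the cardiac genes on some arrays and with skeletal muscle genes on others. Its log2 signal was 8.65 and 9.27 on the high stretch hypercapnia arrays high in skeletal muscle genes, 8.74 on that of low stretch hypercapnia, 8.90 on that of low stretch normocapnia and 9.14 on that of non-ventilated lungs. The other 30 arrays lay between 7.07 and 8.14, so the sets did not overlap. Over those 30 arrays Ttn correlated with the other genes except Sln at r between 0.74 with Tnni3 and 0.91 with Ryr2, and its rho with Ryr2 was 0.90 (permutation p = 1e-05 for r and rho). Over all 35 arrays r with Tnni3 was 0.18 and with Myl4 0.33.

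Sln, which atrial and skeletal muscle both express, was the gene least like the rest. It also had the lowest mean log2 signal of the genes listed. That mean, 6.61 over the 35 arrays, lay below the array medians (6.96 to 7.05). Whether this low signal weakened the correlations of Sln was not tested. Sln lay between 6.89 and 7.22 on the 5 arrays high in skeletal muscle genes and between 5.96 and 6.90 on the other 30. Its r with Ttn was 0.69 over 35 arrays and 0.25 over the 30, where the permutation p was 0.178 and rho was 0.19. Over the 30 arrays 3 of its 9 pairs had an adjusted p under 0.05, those with Nppa (r = 0.49), Myl7 (r = 0.48) and Tnni3 (r = 0.47).

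**Figure D4:**
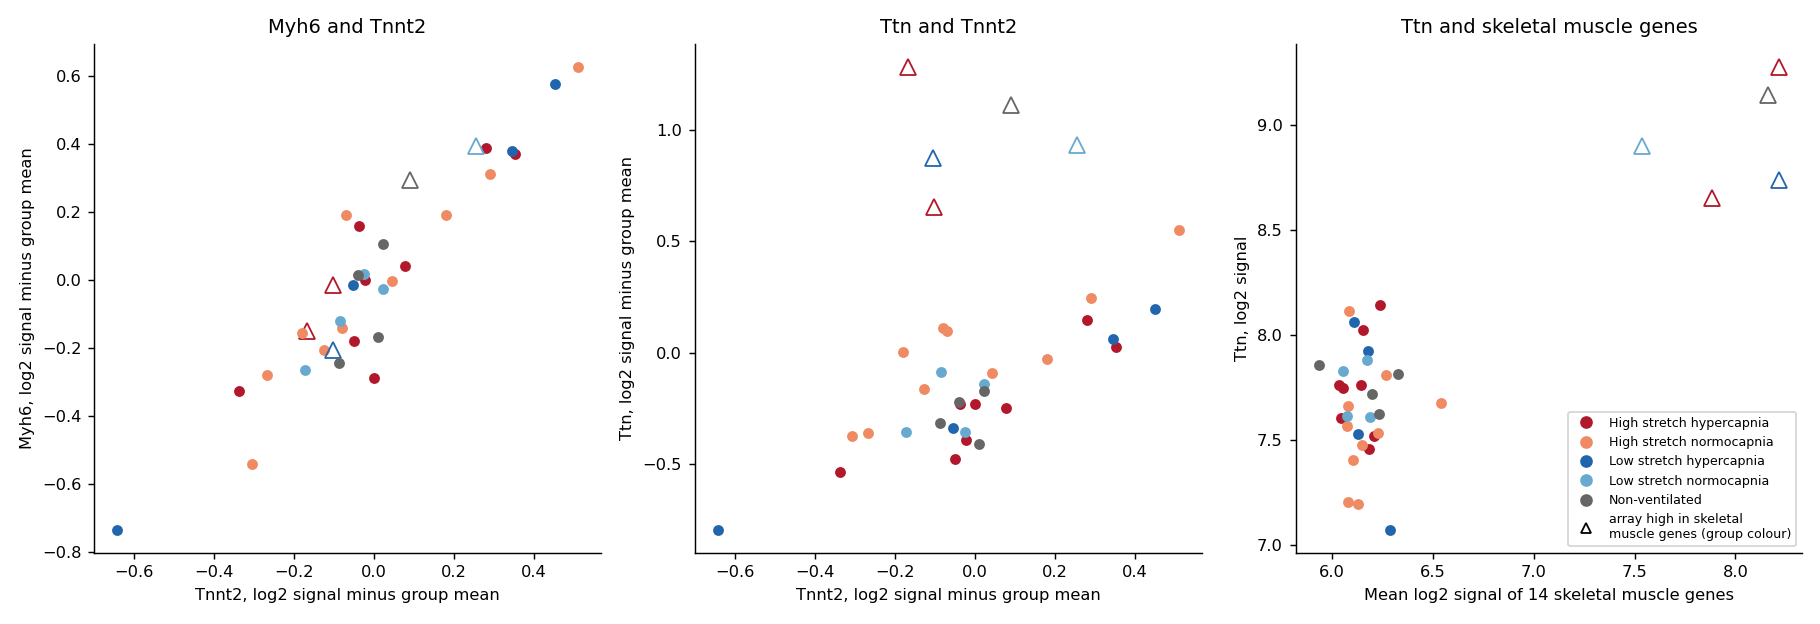
The left and middle panels plot Myh6 and Ttn against Tnnt2, each as log2 signal minus its group mean, and the right panel plots the log2 signal of Ttn against the mean log2 signal of 14 skeletal muscle genes; points are the 35 arrays, coloured by group, and triangles the 5 arrays high in skeletal muscle genes. Myh6 and Tnnt2 lie along a line with the triangles on it, while the triangles lie above the other points for Ttn, and at a skeletal mean of 7.54 to 8.22 in the right panel.

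The genes most like the 10 were ranked by the correlation of their deviations from the group means with the mean deviation of the 10 genes over 35 arrays, each gene scaled to its own SD (Pearson's r, a description with no test). Casq2, the calcium-binding protein of the cardiac sarcoplasmic reticulum, came first among 19928 other genes at r = 0.95. It was followed by Ckmt2, the mitochondrial creatine kinase of sarcomeric muscle (0.86), Myoz2, a Z disc protein (0.85), Tnnc1, troponin C of cardiac and slow muscle (0.83), Srl, which encodes sarcalumenin of the sarcoplasmic reticulum (0.83), and Cox7a1, a muscle subunit of cytochrome oxidase (0.83). The next were the fatty acid binding protein gene Fabp3 (0.79), the Z disc actinin Actn2 (0.78), Etfdh (0.78), Art3 (0.76), Csrp3 (0.76), the ADP/ATP carrier Slc25a4 (0.75), Fgf12 (0.75), phospholamban, Pln (0.75), and the cardiac light chain kinase Mylk3 (0.74).

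Of these 15 genes, 10 were on lists of cardiac genes written for the comparison. Over those lists 32 of 76 measured genes (42.1%) had r of at least 0.5, against 2.11% of all 19928 genes outside the 10, the 76 included. The lists were written with earlier results of these data known, so these shares are a description and not a test. The shares differed between lists. The energy supply list, which also holds Ankrd1 and Art1, had 8 of 11 with a median of 0.69. Calcium handling had 7 of 12 with a median of 0.56, and other sarcomere and Z disc genes 13 of 23 with a median of 0.56. Of the ion channel and connexin genes only Kcnj3, an atrial potassium channel (0.71), reached it among 10, and of the transcription factor genes only Smyd1 (0.70) among 12. Of the secreted and stress genes Pam, an amidating enzyme and major protein of atrial granules (0.70), and Corin, the protease that cleaves the Nppa product (0.57), reached it among 8.

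Lists of other muscle and of lung had lower medians than the energy supply, calcium handling and sarcomere lists, but not than every cardiac list. The median was 0.37 for smooth muscle genes and 0.29 for endothelial genes. It was 0.34 for the secreted and stress genes, 0.21 for the transcription factor genes and 0.05 for the ion channel and connexin genes. None of 5 ventricular genes reached 0.5, with Myl3 highest at 0.32, and Myl2, the ventricular regulatory light chain, was at -0.21 and lay between 5.21 and 5.81 on all arrays. None of 14 skeletal muscle genes did, with Casq1 highest at 0.31. Of 10 smooth muscle genes, Pln (0.75) and Myh11, the smooth muscle myosin heavy chain (0.58), did. None of the alveolar and club cell, endothelial, neutrophil, B cell, cartilage, ciliary, thymic, mesothelial or red cell genes did, and among them the endothelial Pecam1 was highest at 0.48.

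**Figure D5:**
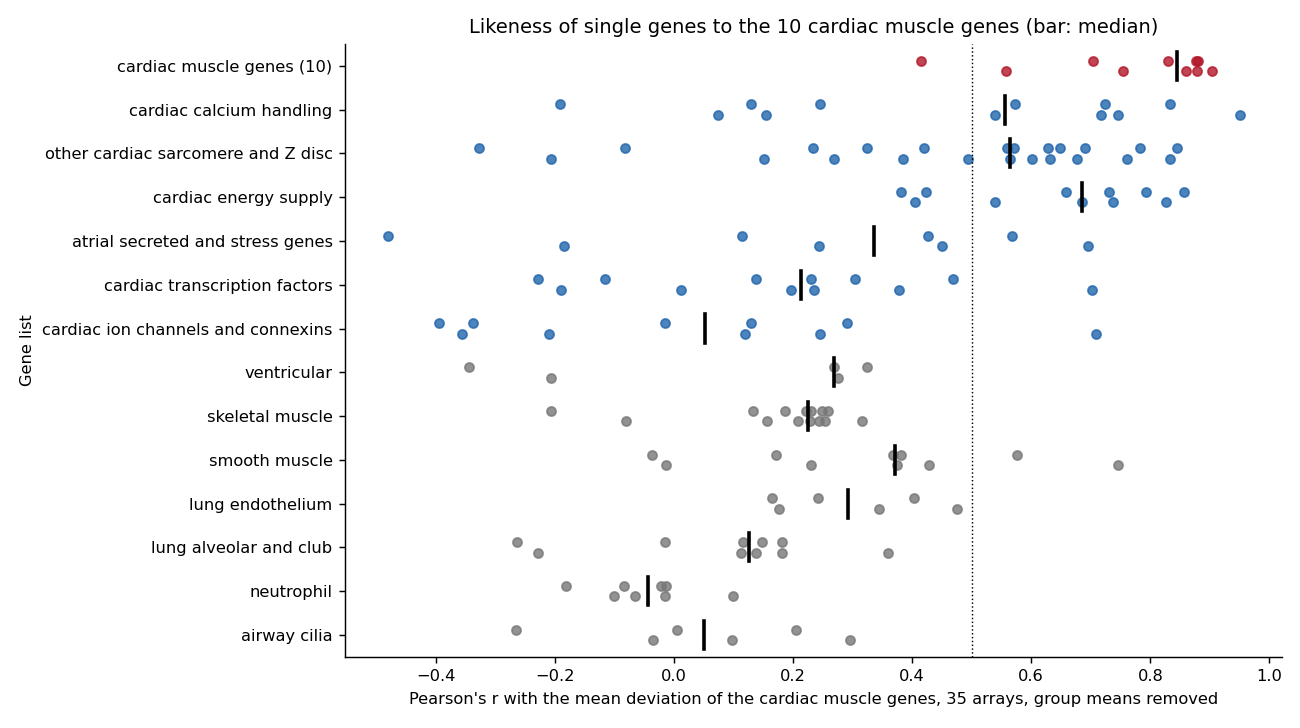
Pearson's r of each gene with the mean deviation of the 10 cardiac muscle genes over 35 arrays (horizontal axis), by gene list (rows); points are genes, bars are list medians, and the dotted line marks 0.5. Each of the 10 genes is set against the other 9 and they run from 0.42 (Sln) to 0.90 (Myh6); the lists of calcium handling, sarcomere and energy genes have medians of 0.56 to 0.69, and skeletal muscle genes a median of 0.22.

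Over the 6 cardiac lists together, 3 of 76 measured genes rose and 7 fell in high against low stretch in normocapnia, which is 13.2% of them, while 18.3% of all genes passed. In high against low stretch in normocapnia, 2 of 12 calcium handling genes fell, the sodium-calcium exchanger Slc8a1 (-0.27, adjusted p = 0.00618) and Asph (-0.24, adjusted p = 0.00169), which other tissues express too, and none rose. Casq2, the gene most like the 10, had a change of -0.37 and did not pass (adjusted p = 0.108). Of 23 other sarcomere and Z disc genes 2 fell, Myh7 (-0.23, adjusted p = 0.0353) and Nebl (-0.19, adjusted p = 0.0139), and 1 rose, Tpm1 (0.26, adjusted p = 0.00641), a tropomyosin also made in smooth muscle. Of 11 genes on the energy supply list the muscle cytochrome oxidase gene Cox6a2 fell (-0.19, adjusted p = 0.028). Ankrd1, which is on that list but is a stretch-responsive gene that many cell types express, rose (0.77, adjusted p = 0.00692). Of 8 atrial secreted and stress genes Pam fell (-0.15, adjusted p = 0.0336). None of the 12 transcription factor genes passed, although 4 had an unadjusted p under 0.05 by limma. Their changes had a median of -0.13, and 10 were negative. Of the 10 ion channel and connexin genes, the potassium channel Kcnq1 fell (-0.17, adjusted p = 0.0364) and the connexin Gja1, which other lung cells also express, rose (1.11, adjusted p = 1.01e-09). Of 5 ventricular genes Myh7 and Hey2 (-0.40, adjusted p = 0.0037) fell. Of 10 smooth muscle genes 2 fell in that pair, with Myh11 at -0.31 (adjusted p = 0.00805), and 8 did not pass, while 9.56% of all genes fell. The part of smooth muscle in the falls of Actc1 and Ryr2 was not tested.

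In low stretch normocapnia against non-ventilated lungs, 9 of the 76 genes fell and none rose, or 11.8%. Of all genes 11.8% passed in either direction, but of the 19938 tested only 1031 fell, while 1322 rose. The share of falls was thus larger on these lists than over all genes. Of these, 5 were among the 12 transcription factor genes. They were Mef2c (-0.52, adjusted p = 0.00488), Tbx3 (-0.39, adjusted p = 0.0014), Tbx20 (-0.36, adjusted p = 0.0189), Tbx18 (-0.35, adjusted p = 0.0301) and Gata6 (-0.26, adjusted p = 0.0036). These factors also act outside cardiac muscle, and their likeness to the 10 genes was under 0.5. The connexin genes Gja5 (-1.19, adjusted p = 2.36e-06) and Gja1 (-0.37, adjusted p = 0.0338) fell among 10 ion channel and connexin genes, and arteries carry Gja5 as well as the atrium. Jph2, which ties the sarcoplasmic reticulum to the cell membrane, fell among 12 calcium handling genes (-0.28, adjusted p = 0.034), and Tpm1 among 23 sarcomere and Z disc genes (-0.29, adjusted p = 0.0115). Of 6 endothelial genes 4 fell there, with a median of -0.38, and their part in these falls was not tested.

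Hypercapnia at high stretch gave 3 calls among the 76 genes, or 3.95%, while 5.56% of all genes passed. The M band gene Myom1 (0.41, adjusted p = 0.0392) and Kcnq1 (0.15, adjusted p = 0.0462) rose and Gata6 (-0.16, adjusted p = 0.0267) fell. High stretch hypercapnia replicates 1 and 2 were among the 5 arrays high in skeletal muscle genes. The change of Myom1 without those arrays was not examined. None of 12 calcium handling genes passed limma's test, and 6 of them had an unadjusted p under 0.05. In high against low stretch in hypercapnia, Ankrd1 (0.83, adjusted p = 0.00691), the Z disc and intercalated disc gene Xirp1 (0.36, adjusted p = 0.0123), Tpm1 (0.24, adjusted p = 0.0173) and Gja1 (0.87, adjusted p = 2.61e-07) rose. Kcnq1 (-0.18, adjusted p = 0.0386) and Tbx3 (-0.27, adjusted p = 0.0143) fell, so 6 of 76 genes passed, or 7.89%, against 10.1% of all genes.

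The amount of other cardiac muscle RNA was entered as a covariate, as the mean log2 signal of 8 cardiac genes outside the 10 (Mybpc3, Tnnc1, Actn2, Myoz2, Tcap, Casq2, Trdn and Smpx). That mean was 7.38 ± 0.20 in high stretch normocapnia (SD, n = 10) and 7.60 ± 0.19 in low stretch normocapnia (SD, n = 5). At equal level of these genes, the change of Actc1 between these groups was -0.22 (adjusted p = 0.119) and that of Ryr2 -0.21 (adjusted p = 0.0611), so neither passed, while 13.3% of all genes did. With the mean of the other 9 genes as the covariate, Ryr2 passed (-0.22, adjusted p = 0.016).

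With the covariate of 8 cardiac genes, Actc1 fell in low stretch normocapnia relative to non-ventilated lungs, by 0.35 on the log2 scale (95% interval -0.56 to -0.15, adjusted p = 0.0156). It was the only gene of the 10 that passed there, and 12.8% of all genes passed. With the mean of the other 9 genes as the covariate its change was -0.20 and did not pass (adjusted p = 0.329). Actc1 had a smaller SD within groups in this fit, 0.16 against 0.27 without the covariate. Some of the 8 genes, such as Tcap and Smpx, are also made in skeletal muscle. With the skeletal mean as a further covariate the SD within groups was 0.12 for Ttn, against 0.51 with no covariate, and 0.10 for Myl4, against 0.27.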

How the data were processed

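RNA from 35 mouse lungs was hybridised to 1 Affymetrix array each. The deposited log2 signals carry the names RMA, Affymetrix Expression Console and Partek in the submitters' processing notes, which give no versions or order, and RMA is the usual name of a background, quantile normalization and summary method. They were used as deposited by the authors. Of 35557 probe sets, 21789 carried 1 gene symbol in the platform annotation, 1621 several and 12147 were not in it. Each of 19938 genes was read from its brightest probe set by the average of all arrays.

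All genes were fitted together by group with lmFit and eBayes (limma 3.58.1, R 4.3.3), with all 35 arrays sharing 1 estimate of the spread. P-values were two-sided and adjusted by Benjamini-Hochberg over all genes, with a threshold of 0.05 and 95% intervals. The code was tested on simulated data. Permutation tests and correlations used scipy 1.17.1, and correlations were permuted within groups. Precision is limited by how many arrays there are, and a difference of RMA values can understate a change of weakly lit probe sets. The labels call the arrays biological replicates, and the main fit did not treat same-numbered arrays as pairs. The genes to name were the 10 genes, the 15 most like them, and in each cardiac list the 2 to 4 genes most like them, with lists of other tissues given mainly by counts and ranges. Genes of the lists that passed a test, or that mark the end of a list, were named after their values were seen. The members and lists were chosen with earlier results of these data known. Alternatives were other normalizations, probe set rules, models and covariates, and leaving out each array. Red cell genes were measured for 2 of 6 listed.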

Additional observations from a re-analysis of the deposited data

Results flagged for a closer look

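Over 50 sets of values (10 genes in 5 groups), 3 held an array whose gap to its nearest neighbour was wide for the range of its group by Dixon's criterion, and chance alone gives about 1 in 20 sets. Ttn read 8.90 on low stretch normocapnia replicate 5 and 9.14 on non-ventilated replicate 5, both among the 5 arrays high in skeletal muscle genes. Tnni3 read 8.02 on high stretch normocapnia replicate 9, the array on which 9 of the 10 genes were highest in their group.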

How the results depend on the processing

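Actc1 and Ryr2 were the 2 genes that fell in high against low stretch in normocapnia. Leaving out each array in turn gave 1 to 2 calls there, 2 in the test of any difference and 0 in the other 5 comparisons. Actc1 alone was lost with the replicate block (-0.37, adjusted p = 0.0864, 1 call left), with both muscle covariates (-0.22, adjusted p = 0.126, 1 call left) and without the 5 arrays high in skeletal muscle genes (-0.41, 1 call left). With the covariate of 8 cardiac genes 0 calls were left there, and 1 was made in low stretch normocapnia against non-ventilated lungs, or 2 with both covariates (Actc1, and Myl4 at -0.24, adjusted p = 0.0119). Over the 6 contrasts, calls at equal level of cardiac genes were 1 with that covariate, 1 with the other 9 genes (another gene) and 3 with both. Hypercapnia at high stretch gave 1 call with array weights (Actc1, 0.38, adjusted p = 0.0207) and 3 unadjusted calls by permutation. No gene that passed changed direction in any setting run. Same-numbered arrays had correlations of their deviations over 0.1 in 4 of 5 pairs for high against low stretch in normocapnia, from 0.04 to 0.26. In no comparison did all pairs exceed 0.1. Arrays with different numbers were not set beside them, so whether the replicate numbers pair the arrays was not tested. The covariates with skeletal muscle and the setting without the 5 arrays were chosen after seeing the data. The cause of these changes was not tested.

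Of the 15 genes most like the 10, 11 to 15 were shared without each array in turn, 11 within the 20 high stretch arrays, 10 without the 5 arrays, and 4 within the other 15 arrays. The genes in the top 10% by spread were 7 to 8 without each array and 7 without the 5. Sln was not tested among genes above the median level. Calls over all genes ranged beyond 1.5 times for hypercapnia at low stretch, from 0 to 84 against 23, for hypercapnia at high stretch, from 676 to 2052 against 1109, for low stretch against non-ventilated lungs, from 1385 to 2683 against 2353, and for high against low stretch in hypercapnia, from 1269 to 2367 against 2017.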
